A study of Capra hircus with 72 samples.

Results

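CD163, ACP5, JAML, CIITA, CCL2 and PTGES are genes of macrophages and other myeloid cells, or of the signals those cells send and answer. They were described here in the muscle and blood of transported goats. The 6 genes were taken by gene name from 6 deposited tables, in which 7558 genes were listed at least once. Each table lists the genes with an unadjusted p-value under 0.05 in 1 comparison of transported with control goats, so the genes were selected on the values compared, and their differences between transported and control goats are given as a description. The blood tables listed 1 of the 6 among 430 genes after 30 min of transport (ACP5) and 3 among 1247 after 180 min (CD163, ACP5, CCL2). The muscle tables of the 24H set listed 2 among 4125 genes after 30 min (ACP5, CD163) and 1 among 1961 after 180 min (CD163). In the 6D set, 5 among 1252 genes were listed after 30 min (CCL2, JAML, PTGES, CIITA, ACP5) and 3 among 1618 after 180 min (CCL2, PTGES, CD163). A gene that a table does not list has no value in that comparison here.

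The animals were intact male Spanish goats (Capra hircus) 8 months of age, deprived of feed overnight, that stayed in pens as controls or were driven in a stock trailer, for either 30 min or 180 min. No genotype, agent or other treatment is named in the labels. The blood libraries numbered 7 for controls, 4 for 30 min and 7 for 180 min. Muscle was sequenced in a pair of sets with 9 libraries for each of the 3 groups, which the tables mark 24H and 6D. What these marks mean is stated in no label, and they serve here as names only. Libraries carry goat numbers from 1 to 27, the same numbers recur in blood and both muscle sets, and each transport group of a set was compared with the same controls, so the tables are not independent of each other. Nothing in the labels ties a library to a day or a batch. For goat 9 in muscle, the title and group tag read control while another pair of fields names 180 min of transport. Goat 9 was kept as a control, and values without it are given where it stands apart. Library totals ran from 9.45 to 39.5 M counts (M for 1e+06) with a median of 14.7 M. Scaling to the library total in place of the authors' size factors shifts the differences of all genes in a table alike, before any constant is added to the counts. By table, this shift was -0.04 to 0.05 on the log2 scale, transported minus control.

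Macrophages are resident in skeletal muscle between the fibres and around vessels, and monocytes of the blood can enter muscle and become macrophages. CD163 is the receptor through which macrophages take up complexes of haemoglobin and haptoglobin, and glucocorticoids raise its expression in human monocytes. ACP5 encodes tartrate-resistant acid phosphatase, an enzyme of osteoclasts and of some macrophages. CCL2 is the chemokine that draws monocytes through the receptor CCR2. JAML is an adhesion molecule of leukocytes that binds the coxsackie and adenovirus receptor on epithelial and endothelial cells. CIITA is the coactivator that switches on the MHC class II genes with which cells present antigen to T cells. PTGES makes prostaglandin E2 from the intermediate that the cyclooxygenases PTGS1 and PTGS2 produce. In whole tissue, fewer cells of a type and less RNA of a gene per cell cannot be told apart.

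Coordinates follow the deposited tables, with a genome build not given in the sources used here. CD163 (ENSCHIG00000015726) lies on the minus strand of chromosome 5 from 99469765 to 99513933, and ACP5 (ENSCHIG00000014322) on the minus strand of chromosome 7 from 95771028 to 95777052. CCL2 (ENSCHIG00000023567) lies on the minus strand of chromosome 19 from 15555558 to 15556951, and PTGES (ENSCHIG00000024614) on the minus strand of chromosome 11 from 99597343 to 99608367. JAML (ENSCHIG00000016062) lies on the plus strand of chromosome 15 from 53428331 to 53453256, and CIITA (ENSCHIG00000019446) on the plus strand of chromosome 25 from 9443379 to 9485957. Values are given per gene, and which parts of a gene were counted is not stated in the sources used here.

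Compared per length, as FPKM (counts over the listed gene length and the library total), the 6D control muscle held more CCL2, ACP5 and PTGES than JAML, CD163 or CIITA. CCL2 stood at 8.84 ± 7.56 FPKM, ACP5 at 6.65 ± 1.98 FPKM and PTGES at 6.41 ± 4.25 FPKM (SD, n = 9). These 3 means differed by less than the SD of CCL2, whose highest library was goat 9 at 27.3 FPKM, and by the median ACP5 came first, with 7.01 FPKM against 6.08 for CCL2 and 5.66 for PTGES. JAML stood at 2.15 ± 1.06 FPKM, CD163 at 0.541 ± 0.320 FPKM and CIITA at 0.474 ± 0.177 FPKM (SD, n = 9). The FPKM of CCL2 and PTGES rest on short listed lengths of 297 and 462 bases, against 6397 bases for CD163 and 5036 for ACP5. Their counts were low, with a median of 26 reads per control library for CCL2 and 30 for PTGES, against 404 for ACP5. The medians of CD163, JAML and CIITA were 30, 25 and 17 reads. In reads, CCL2 and PTGES were thus close to CD163 and JAML, and their higher place holds per length only.

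CD163 was the member that the tables list as higher after transport, in both muscle sets and in blood. Levels are normalized counts (reads divided by the authors' size factor for the library), given as the lowest, median and highest goat. Differences are means of log2(normalized count + 1), transported minus control, with the standard error from limma fitted to all genes listed in the table. In the 24H set, control muscle held 10.4, 28.3 and 87.3 normalized counts of CD163 and muscle after 180 min held 29.4, 111 and 169. All 9 transported goats exceeded the control median and 5 exceeded every control, while the groups overlapped, with goat 9 the highest control. The log2 difference was 1.55 ± 0.39 (limma adjusted p within the table, 0.0135), and the authors' deposited table gives a log2 fold change of 1.53 with an adjusted p of 0.00759. Without goat 9 the log2 difference was 1.74. A gene is named as called from here on where the authors' adjusted p was under 0.05. For this comparison 14.4% of the listed genes were called, with 7.6% called higher and 6.78% lower, 2.01% of all genes the authors adjusted were called, and 64.6% of the listed genes had a limma adjusted p under 0.05.

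After 30 min in the 24H set, CD163 stood at 32.0, 66.2 and 130 normalized counts, against 11.2, 30.9 and 93.9 in the controls, which the authors scaled anew for this table. Again all 9 transported goats lay above the control median, but only 1 of them lay above every control. The highest control was goat 9, and the next stood at 61.1, below the transported median of 66.2. The difference of the log2 means was 0.87 ± 0.34 (limma adjusted p 0.0341), and in the authors' deposited table the adjusted p was 0.109. CD163 was therefore not called, where 37% of the listed genes were called, with 18.9% called higher, 12.1% of all genes the authors adjusted were called, and 77.5% of the listed genes passed the limma threshold. The limma adjusted p was above 0.05 when any 1 of 6 libraries (transported goats 19, 23 or 25, control goats 3, 5 or 7) was left out, with values up to 0.0577. With each library left out in turn the log2 difference ran from 0.69 to 1.06, the highest without goat 9.

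In the 6D set after 180 min, CD163 stood at 28.2, 74.6 and 190 normalized counts against 18.9, 37.0 and 98.4 in the controls. Of the 9 transported goats 8 exceeded the control median, goat 18 did not, and 2 exceeded every control. Goat 16 was the highest of the transported goats and goat 9 of the controls. The next control stood at 60.5, below the transported median of 74.6. The log2 difference came to 0.96 ± 0.33 (limma adjusted p 0.036), and the authors' deposited table gives an adjusted p of 0.179, so CD163 was not called. Of the listed genes here 7.35% were called, with 3.83% called higher, 0.827% of all genes the authors adjusted were called, and 47.3% of the listed genes passed the limma threshold. Without goat 16 the log2 difference was 0.79, with a limma adjusted p of 0.0512, and the adjusted p was 0.0502 without transported goat 12 and 0.0553 without control goat 3. With each library left out in turn, goat 9 included, the log2 difference ran from 0.79 to 1.13.

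**Figure D1:**
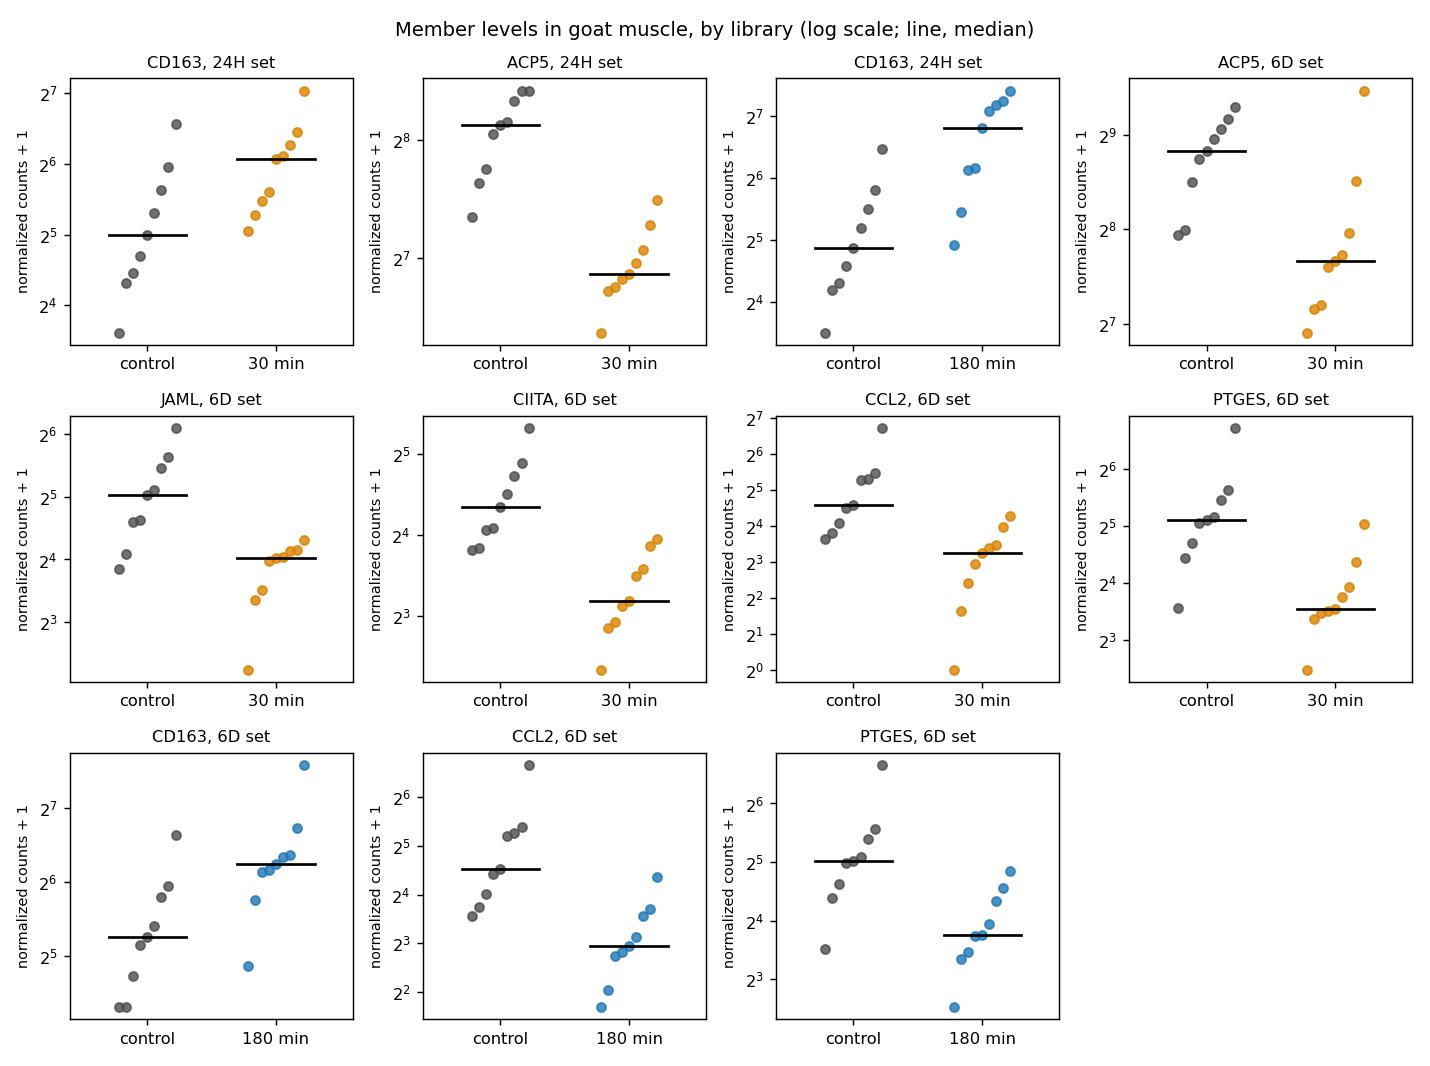
Each panel plots 1 gene in 1 muscle comparison. Points are libraries (9 a group), sorted by level within a group, the vertical axis is normalized counts + 1 on a log scale that differs between panels, and lines mark the median. CD163 panels show transported goats above the control median, apart from goat 18 in the 6D set. In the 24H set after 180 min the CD163 median went from 28.3 to 111 normalized counts. The ACP5, JAML, CIITA, CCL2 and PTGES panels show transported goats below the control median, apart from goat 19 in the ACP5 panel of the 6D set.

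In blood, CD163 was far more abundant than in muscle. The 7 control goats held 452, 1376 and 2737 normalized counts and the 7 goats after 180 min held 1953, 4000 and 14681. Of the transported goats 6 lay above every control, and goat 15, the highest, stood well above the next goat at 5180. The log2 difference was 1.90 ± 0.43 (limma adjusted p 0.015), and the authors' deposited table gives a log2 fold change of 1.95 with an adjusted p of 0.013, where 5.61% of the listed genes were called, with 5.05% called higher, and 0.704% of all genes the authors adjusted. The limma threshold was passed by 28.5% of the listed genes. Without goat 15 the log2 difference was 1.61 (limma adjusted p 0.0303). Markers of other blood cells moved in the same table. Of 17 neutrophil markers, 6 were listed, all higher, and ALPL and PGLYRP1 were called, with a summed level of 19132 to 80535 normalized counts in controls and 63626 to 218800 in transported goats. The T cell and NK cell list (20 genes) had 7 listed, of which 6 were lower, with LCK called lower and NKG7 called higher. Of all genes listed there 0.561% were called lower. The T cell and NK cell sum ran from 8691 to 16664 in controls and from 6876 to 12118 in transported goats. The part of these cell types in the CD163 difference was not tested.

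Of 36 macrophage and monocyte markers besides the 6 members, 6 were listed in blood after 180 min, all with positive differences, and none was called (CSF1R, CSF3R, CD14, ADGRE1, C1QA and C1QB), with a median log2 difference of 0.97 against 0.68 over all genes listed, of which 59.4% were higher. CSF1R, the receptor for macrophage colony-stimulating factor, stood at 3690 ± 1354 normalized counts in controls and 6817 ± 1447 after 180 min (SD, n = 7 each), a log2 difference of 0.94 ± 0.25. CSF3R is on the neutrophil list too. In blood after 30 min none of the 36 was listed.

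The FPKM scale puts CD163 in 1 order across the groups that list it. Blood after 180 min stood at 40.3 ± 29.8 FPKM and blood controls at 10.2 ± 5.47 FPKM (SD, n = 7 each). Muscle lay between 0.393 ± 0.265 FPKM in the 24H controls and 1.09 ± 0.524 FPKM in the 24H goats after 180 min (SD, n = 9 each). Between these came the 6D controls at 0.541 ± 0.320, the 24H goats after 30 min at 0.685 ± 0.315 and the 6D goats after 180 min at 1.03 ± 0.538 FPKM (SD, n = 9 each). Neighbouring muscle groups in this order differed by less than the larger of their SDs. The lowest blood library, at 3.44 FPKM, lay above the highest muscle library, at 2.29 FPKM. The beta-globin gene HBBC, a red cell gene chosen after its values were seen, was at a median of 6.002 normalized counts in 24H controls and 2.54 after 180 min, at 6.63 and 4.04 in the 30 min table, and at 17.2 and 4.99 in the 6D 180 min table. It was called in none of them, and its part in the CD163 differences was not tested.

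**Figure D2:**
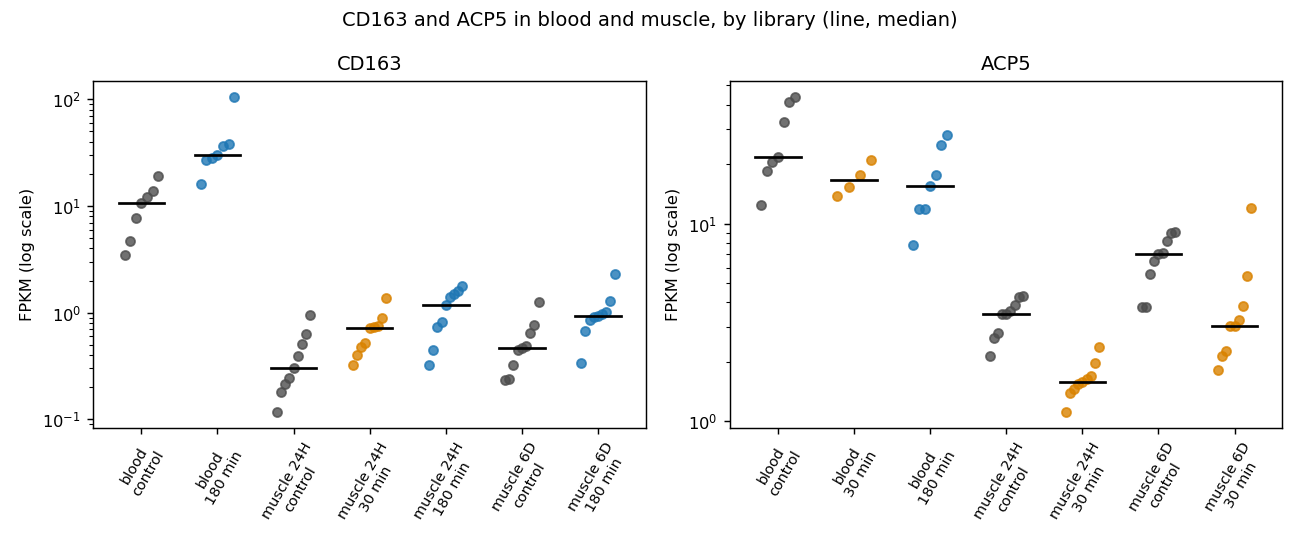
CD163 (left) and ACP5 (right) per library in FPKM on a log scale, in each group whose tables list the gene, with lines at the median. CD163 lies between 3.44 and 106 FPKM in blood and between 0.118 and 2.29 FPKM in muscle, while ACP5 in 6D muscle reaches into the lower part of the blood range.

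Few other macrophage markers were listed with CD163 in muscle. In the 24H 180 min table, where CD163 was called, none of the 36 other macrophage and monocyte markers was listed. The 24H 30 min table listed 4 of them, where 18.9% of all listed genes were called higher and 18.1% lower. MRC1, the mannose receptor of tissue macrophages, was higher by 0.62 ± 0.25 (log2) and not called, CD68 was called lower at -0.81 ± 0.29 (limma adjusted p 0.0288), and LAPTM5 and LYVE1 were lower and not called. In the 6D 180 min table AIF1 and TYROBP were listed, both lower and neither called, at -0.58 ± 0.32 and -0.47 ± 0.29. Summed over the listed markers, the 24H 30 min table ran from 529 to 2354 normalized counts in controls and from 395 to 1210 in transported goats, and the 6D 180 min table from 62.0 to 274 and from 51.2 to 158.

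Genes that handle the haem taken up by CD163 were on a list of 20 genes of haemoglobin scavenging, haem and iron. Of these, 4 were listed in the 24H set after 180 min, 3 higher and 1 lower, and 3 in the 6D set after 180 min, 2 higher and 1 lower. Of all genes listed after 180 min, 7.6% (24H) and 3.83% (6D) were called higher, and 64.6% and 47.3% passed the limma threshold. HMOX2, a haem oxygenase, was called higher in both sets. It went from 429 ± 143 to 851 ± 336 normalized counts in the 24H set (log2 difference 0.95 ± 0.24, limma adjusted p 0.013) and from 328 ± 118 to 671 ± 260 in the 6D set (1.01 ± 0.23, limma adjusted p 0.0105; SD, n = 9 each). HMOX1, the haem oxygenase that stress induces, was at 0.85 ± 0.43 and 0.93 ± 0.33 and was called in neither. SLC40A1, the iron exporter ferroportin, was lower by about the same amount in 3 muscle tables, at -0.50 ± 0.20 after 30 min in the 24H set and at -0.51 ± 0.16 and -0.51 ± 0.18 after 180 min in the 24H and 6D sets, and was called in none. TFRC, the transferrin receptor, was at 0.42 ± 0.20 in the 24H 180 min table and not called. In the 6D 30 min table, the list's 1 listed gene was CD5, a T cell gene of the same receptor family as CD163, at -0.66 ± 0.43. In blood after 180 min SLC11A1, a metal transporter of phagocytes, was called higher at 1.53 ± 0.36, while HMOX2, HPX and CD5 were not called. Of all genes listed there 5.05% were called higher. In blood after 30 min SLC40A1 was the list's 1 listed gene, at 0.66 ± 0.26 and not called.

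Glucocorticoids raise CD163 expression in human monocytes, and 20 other genes that glucocorticoids act on were followed. All 6 tables listed some of them, and FKBP5, the co-chaperone of the glucocorticoid receptor, was called higher in all 4 muscle tables. Its log2 difference was 1.52 ± 0.17 after 30 min and 2.06 ± 0.40 after 180 min in the 24H set, and 1.56 ± 0.25 and 1.94 ± 0.29 in the 6D set. In the 24H set 8 of 9 listed genes were higher after 30 min, 6 of them called (among them FKBP5, ZBTB16 and KLF9), and 5 of 6 after 180 min, 3 of them called (FKBP5, FOXO1 and GLUL). SGK1 was lower in both, at -0.63 ± 0.24 and -0.73 ± 0.24, and not called. In the 6D tables all 9 listed were higher after 30 min with FKBP5 called, and all 6 after 180 min with FKBP5 and FOXO1 called. In blood, 6 of 6 were higher after 30 min with NFKBIA called, and 7 of 8 after 180 min with IL1R2, GLUL, DDIT4 and CEBPD called. Over all listed genes the share that was higher was 49.04% and 48.6% after 30 and 180 min in the 24H set, 48.8% and 45.6% in the 6D set, and 29.5% and 59.4% in blood. The share called higher was 18.9% and 7.6% in the 24H set, 0.16% and 3.83% in the 6D set, and 1.16% and 5.05% in blood. The part of glucocorticoids in the CD163 differences was not tested.

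ACP5 was listed in 4 tables, lower in each. In the 24H set after 30 min, its controls held 162, 278 and 340 normalized counts and the transported goats 81.8, 116 and 179. Of the 9 transported goats 8 lay below every control, and only goat 25 reached into the control range. On the log2 scale the difference was -1.10 ± 0.17 (limma adjusted p 0.00301), and in the authors' deposited table ACP5 had the third-smallest p-value of the 4125 genes, with a log2 fold change of -1.11 and an adjusted p of 2.15e-07. Of the listed genes 18.1% were called lower.

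In the 6D set after 30 min, ACP5 stood at 119, 201 and 705 normalized counts against 245, 453 and 624 in the controls. Of the transported goats 6 lay below every control, while goat 19 lay above every control and well above the next transported goat at 364. Transported minus control came to a log2 difference of -0.92 ± 0.28 (limma adjusted p 0.0765), and the authors' deposited table gives an adjusted p of 0.495. ACP5 was not called, where 0.24% of the listed genes were called, with 0.16% called higher and 0.0799% lower, 0.0177% of all genes the authors adjusted were called, and 0.0799% of the listed genes passed the limma threshold. Without goat 19 the log2 difference was -1.13 (limma adjusted p 0.0306). Without control goat 4 all 5 members listed in this table had a limma adjusted p of 0.0487. None of those 5 was called in the authors' deposited table, while DESeq2 run on the listed genes alone put all 5 under an adjusted p of 0.05. All listed genes were selected on an unadjusted p under 0.05, and adjustment over them alone cannot exceed the largest p. This DESeq2 outcome was therefore close to fixed by the selection and supports nothing.

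In blood, the controls held 1183, 2104 and 4365 normalized counts of ACP5 in the 30 min table, and the 4 transported goats held 1627, 1413, 1914 and 1285. All 4 were below the control median and none was below every control. The log2 difference was -0.62 ± 0.32 (limma adjusted p 0.101), and ACP5 was not called, where 1.16% of the listed genes were called, all of them higher, 0.0241% of all genes the authors adjusted were called, and 4.42% of the listed genes passed the limma threshold. With TMM scaling over the listed genes the log2 difference was -0.30 (limma adjusted p 0.328). DESeq2 gave -0.74 (adjusted p 0.0453 over the listed genes alone, whose selection all but fixes a value under 0.05). After 180 min the controls held 1403, 2358 and 4527 and the transported goats 854, 1504 and 2662 normalized counts, with 3 of 7 below every control. The log2 difference there was -0.74 ± 0.30 (limma adjusted p 0.0606). ACP5 was not called in that table either, where 0.561% were called lower. The limma adjusted p was 0.0452 without transported goat 13 and 0.0469 without control goat 7. With TMM scaling the log2 difference was -1.16 (limma adjusted p 0.0270), and the adjusted p was 0.0497 with edgeR and 0.0331 with DESeq2. The selection of the listed genes all but fixes a DESeq2 value under 0.05. The limma and edgeR values, with TMM or without, were adjusted over the same selected genes and describe them only. Adjusted over the authors' number of genes, the limma adjusted p was 0.483.

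Other genes of the acid phosphatase, osteoclast and lysosome list (24 genes) did not share 1 direction with ACP5. The 24H 30 min table listed 7, and over all its listed genes 18.9% were called higher and 18.1% lower. MITF and NFATC1, transcription factors of osteoclast differentiation, were called higher at 1.10 ± 0.32 and 0.57 ± 0.19, while CD68 was called lower. SPP1 was at 1.07 ± 0.53, and TCIRG1, a subunit of the lysosomal proton pump, TFEB and CTSZ were lower, at -0.42 ± 0.18, -0.28 ± 0.13 and -0.33 ± 0.16, with none of these 4 called. The 6D 30 min table listed 3, with MITF at 1.29 ± 0.46, CTSZ at -0.42 ± 0.15 and CD68 at -0.72 ± 0.28, none called. The 24H 180 min table listed SPP1, not called, and the 6D 180 min table listed none. In blood after 180 min CTSH and CLCN7 were higher and TNFRSF11A lower, none called, and after 30 min none was listed.

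ACP5 differed between the muscle sets in goats of the same treatment, a comparison the choice of genes did not use. On log2(counts per 10 M of the library total + 1), the controls averaged 7.40 ± 0.34 in the 24H set and 8.33 ± 0.48 in the 6D set (SD, n = 9 each). The 6D level was higher by 0.93 (95% interval 0.51 to 1.34; exact permutation test, two-sided, p = 0.000658, adjusted over 4 such comparisons 0.00132). In goats after 30 min it was higher by 1.09 (0.51 to 1.70; exact permutation p = 0.000329, adjusted 0.00132). In both groups all 9 goat numbers were higher in the 6D set. The permutation treated the libraries as independent, though the same goat numbers recur in both sets. With the goat number as a block, the ACP5 intervals were 0.66 to 1.19 and 0.61 to 1.72 (exact sign-flip test, adjusted p = 0.0078 for both). For CD163 in controls 6D minus 24H was 0.51 (-0.33 to 1.35; exact permutation, adjusted p = 0.282), higher for 6 of 9 goat numbers, and after 180 min it was -0.04 (-0.83 to 0.75; exact permutation, adjusted p = 0.916), higher for 5 of 9. The control interval of CD163 includes the ACP5 difference, and the genes were not tested against each other. Other genes listed after 30 min in both sets also had unlike control means. CLDN5 stood at 670 normalized counts (24H) and 1400 (6D), and FKBP5 at 567 and 232. The share of all genes that differ between the sets was not computed, so whether ACP5 stands out was not tested. The sets were each normalized alone by the authors, and set and library preparation cannot be told apart.

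**Figure D3:**
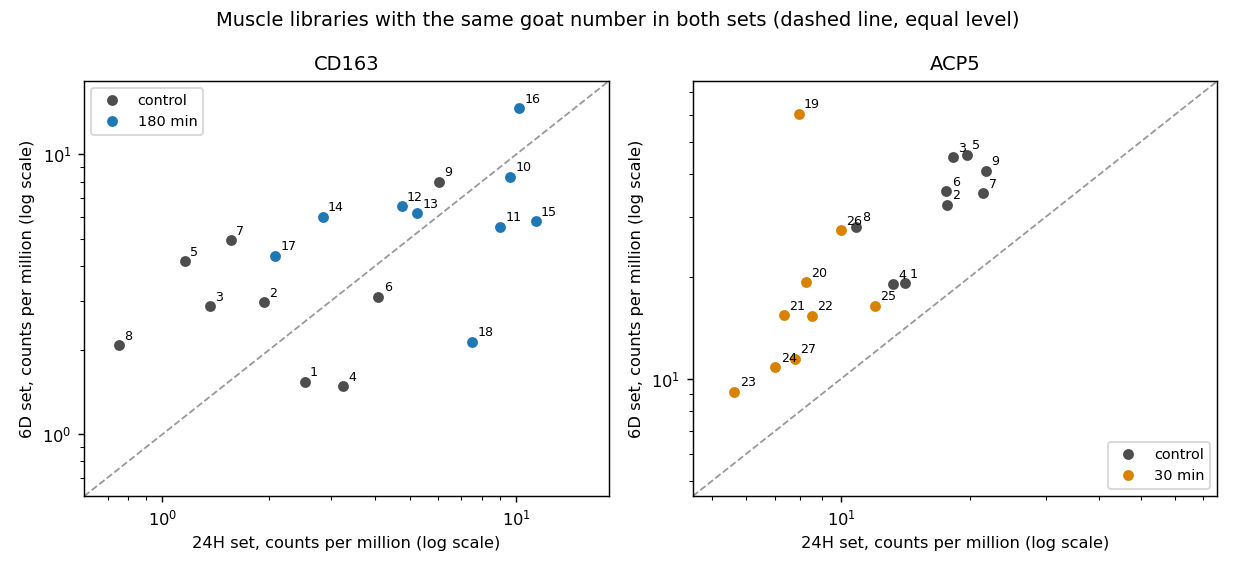
Each point is a goat number, with counts per M of the library total in the 24H set on the horizontal and in the 6D set on the vertical log axis; the dashed line marks equal levels. All 18 ACP5 points lie above the line, while the 18 CD163 points fall on both sides, with 6 of 9 controls and 5 of 9 goats after 180 min above it.

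The transport differences themselves were also compared between sets by an exact permutation of whole goats. For CD163 after 180 min the 6D difference minus the 24H difference was -0.55 (95% interval -1.55 to 0.45; adjusted p over 2 comparisons 0.504). For ACP5 after 30 min it was 0.16 (-0.36 to 0.74; exact permutation, adjusted p = 0.674). Both intervals include 0, and that of CD163 reaches a size as large as the transport difference of either set.

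On FPKM, ACP5 was highest in blood controls, at 27.3 ± 12.02 (SD, n = 7). Blood after 30 min, at 17.002 ± 3.16 (n = 4), and after 180 min, at 16.8 ± 7.38 (n = 7), came next and lay within 1 SD of each other. The 6D controls stood at 6.65 ± 1.98, the 6D goats after 30 min at 4.09 ± 3.15, the 24H controls at 3.41 ± 0.744 and the 24H goats after 30 min at 1.64 ± 0.360 FPKM (SD, n = 9 each). The neighbours among these differed by less than the larger SD, except the last pair, and the step from blood to muscle.

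CCL2, the monocyte chemokine, was called lower in the 6D set after 180 min. Its controls held 10.8, 22.03 and 99.98 normalized counts (lowest, median, highest) and the transported goats 2.25, 6.66 and 19.4. Of the 9 transported goats 7 lay below every control. The highest control, goat 9, stood far above the next at 40.9. The log2 difference came to -1.75 ± 0.41 (limma adjusted p 0.0129), and the authors' deposited table gives a log2 fold change of -1.98 with an adjusted p of 0.00403, where 3.52% of the listed genes were called lower. Without goat 9 the log2 difference was -1.51 (limma adjusted p 0.0197).

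After 30 min in the same set, CCL2 stood at 0, 8.40 and 18.4 normalized counts against 11.3, 23.2 and 105 in the controls, with 7 of 9 transported goats again below every control. Goat 24 had no CCL2 read. The mean log2 difference was -2.01 ± 0.50 (limma adjusted p 0.0765), and the authors' deposited table gives an adjusted p of 0.0639, so CCL2 was not called. Without goat 9 the log2 difference was -1.77 (limma adjusted p 0.0915). With 1 library left out the adjusted p ran from 0.0487 (without goat 4) to 0.116 (without goat 23). DESeq2 over the listed genes alone, whose selection all but fixes a value under 0.05, gave 0.00599. Reads summed to 309 in the controls, 78 after 30 min and 84 after 180 min. Both transport groups were set against the same controls, and listing at both durations required a difference from them in each. Compared directly, 180 min minus 30 min was 0.18 on the log2 scale (95% interval -0.84 to 1.22; exact permutation, adjusted p over 4 comparisons 0.752).

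In blood CCL2 was close to absent, with 33 reads over the 7 controls and 6 reads over the 7 goats after 180 min. Of the transported goats 5 had no read, and goat 13 had 5 of the 6 reads. It was not called, and at these counts no fold is given. The limma adjusted p was 0.0623 with all goats and 0.0389 without control goat 9.

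The list of monocyte chemokines and receptors (31 genes) had few listed genes in muscle, and none was called in any muscle table. After 30 min in the 24H set CCL16 and CCL8 were lower, and after 180 min IL1B, at -1.18 ± 0.40, and ACKR1, a receptor on venules that binds chemokines without signalling, at -0.79 ± 0.35. In the 6D set, ACKR1 at -1.52 ± 0.48 and CSF1 at -0.52 ± 0.23 were lower after 180 min, and NFKBIA at 0.60 ± 0.30 was higher after 30 min. In blood, NFKBIA and CXCR4 were called higher after 30 min, at 1.68 ± 0.24 and 1.19 ± 0.22. Of all genes listed there 1.16% were called higher. CCL24 and CXCL8 were higher in that table, TNF was lower, and none of these 3 was called. After 180 min CSF1R, CXCL8 and CCL24 were higher and not called. CCR2, the receptor of CCL2, was on the macrophage list and was listed in no table.

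PTGES, the prostaglandin E synthase, was also called lower in the 6D set after 180 min. The controls held 10.4, 31.4 and 100 normalized counts and the transported goats 4.76, 12.5 and 27.7. All 9 transported goats lay below the control median and 3 below every control, and control goat 5 stood far above the next control at 46.2. The log2 difference was -1.19 ± 0.36 (limma adjusted p 0.0271), and the authors' deposited table gives an adjusted p of 0.0386. Of the listed genes 3.52% were called lower. Without goat 5 the log2 difference was -0.99 (limma adjusted p 0.043). After 30 min PTGES stood at 4.58, 10.7 and 31.9 against 10.9, 33.2 and 105 normalized counts, with all 9 transported goats below the control median and 5 below every control. That log2 difference was -1.37 ± 0.36 (limma adjusted p 0.0765), and in the authors' deposited table the adjusted p was 0.0911. Between 180 min and 30 min the log2 difference was 0.13 (95% interval -0.54 to 0.79; exact permutation, adjusted p = 0.752).

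Of 28 other genes of the prostaglandin E2 pathway, the 6D 180 min table listed 6, with 1 higher and 5 lower. Their median log2 difference was -0.95 against -0.38 over all genes of that table, of which 3.52% were called lower. PTGS1, which makes the substrate of PTGES, was called lower, from 78.8 ± 40.9 to 36.5 ± 16.8 normalized counts (SD, n = 9 each; log2 difference -1.12 ± 0.30, limma adjusted p 0.0209). PTGS2, at -1.14 ± 0.51, the phospholipase PLA2G4A, at -0.78 ± 0.35, the receptor PTGER3, at -1.26 ± 0.40, and PTGR1, at -0.36 ± 0.16, were lower and not called. HPGD, the enzyme that breaks prostaglandin E2 down, was higher in all 4 muscle tables, at 0.64 ± 0.58 to 1.33 ± 0.48, called in none, and averaged under 7 normalized counts in every group. In the 24H set PTGER3 was called lower after 180 min, at -1.24 ± 0.29, and PTGER4 was at -0.99 ± 0.37. Of all genes listed in that comparison 6.78% were called lower. After 30 min MGST3 was called lower, at -0.42 ± 0.15, with PTGER4 at -0.93 ± 0.40 and SLCO2A1 at 0.65 ± 0.31 not called. Of all genes listed at that time in the 24H set 18.1% were called lower. In the 6D 30 min table HPGD was the list's 1 listed gene. In blood PTGR1 was called lower after 180 min, at -1.32 ± 0.30, where 0.561% of all listed genes were called lower. MGST1 and PTGER2 were higher there and not called, and after 30 min MGST1 was higher and not called.

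JAML, the leukocyte adhesion molecule, was listed in the 6D 30 min table alone. Its controls held 13.4, 31.6 and 67.5 normalized counts and the transported goats 3.75, 15.3 and 18.8. All 9 transported goats lay below the control median and 3 below every control. Transported minus control came to a log2 difference of -1.19 ± 0.33 (limma adjusted p 0.0765), and in the authors' deposited table the adjusted p was 0.0911, so JAML was not called. Of 21 other genes of junctional adhesion and leukocyte transmigration the same table listed 3, with PIK3R1 and JAM3 higher, the integrin subunit ITGA4 lower and none called. The 24H 30 min table listed 6, and 37% of all its listed genes were called in either direction. PIK3R1 and ICAM1 were called higher, at 1.08 ± 0.21 and 1.03 ± 0.31, ESAM was called lower, at -0.67 ± 0.19, and ITGB1 (higher), F11R and SELP (lower) were not called. In the 180 min tables JAM2 was lower in both sets, at -0.57 ± 0.24 and -0.58 ± 0.25, and JAM3 (higher), ESAM and PIK3CG (lower) were listed in the 24H set, none called. In blood ICAM1 after 30 min and SELP after 180 min were higher and not called.

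CIITA, the coactivator of MHC class II genes, was likewise listed in the 6D 30 min table alone. It stood at 13.1, 19.4 and 39.2 normalized counts in controls and at 4.07, 8.17 and 14.5 in transported goats. All 9 transported goats lay below the control median and 7 below every control. The difference of the log2 means was -1.14 ± 0.28 (limma adjusted p 0.0765), and in the authors' deposited table the adjusted p was 0.0995. CIITA was not called. The counts behind it were low, with 177 reads in all for the 9 controls and 91 for the 9 transported goats.

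Of 31 other genes of MHC class II and its transcription, 8 were listed in the 6D 30 min table, 2 higher and 6 lower, none called, with a median log2 difference of -0.49 against -0.28 over all its genes. The class II chain HLA-DRA stood at 509 ± 287 normalized counts in controls and 330 ± 104 in transported goats (log2 difference -0.52 ± 0.27), and CD74, the invariant chain that guides class II molecules, at 1097 ± 540 and 687 ± 219 (-0.61 ± 0.25; SD, n = 9 each). IFI30, IRF1, RFXANK and HLA-DMA were lower too, and the kinases JAK1 and JAK2, which carry interferon signals, were higher. In the 24H 30 min table JAK1 was called higher, at 0.71 ± 0.21, and IRF1 and RFXANK were called lower, at -0.70 ± 0.26 and -0.69 ± 0.24, with IFI30 (lower) and RFXAP (higher) not called. Over all genes listed there 37% were called. After 180 min NLRC5, the coactivator of MHC class I genes, was called lower in the 24H set, at -0.95 ± 0.24. Of all genes listed in that comparison 6.78% were called lower. In the 6D set NLRC5 was at -0.87 ± 0.26 after 180 min and not called. IRF1 and IFI30 were lower and not called in both sets, as were JAK2 and HLA-DOA in the 24H set. In blood SOCS1 was called higher after 30 min, at 2.56 ± 0.40, where 1.16% of all listed genes were called higher. None of these 31 genes was listed in blood after 180 min.

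Of the 36 macrophage and monocyte markers, 10 were listed in the 6D 30 min table, all with negative differences and none called (C1QC, TYROBP, AIF1, CD68, FCER1G, LAPTM5, FOLR2, SPI1, C1QB and C1QA), with a median log2 difference of -0.72 against -0.28 over all genes of the table, of which 48.8% were higher. The limma adjusted p of these 10 ran from 0.0765 to 0.122. C1QC, a chain of complement C1q, stood at 98.4 ± 62.2 normalized counts in controls and 46.1 ± 22.3 in transported goats (SD, n = 9 each; log2 difference -0.996 ± 0.369). The sum of the 10 ran from 769 to 2680 normalized counts in controls and from 547 to 1422 in transported goats, so the groups overlapped. Markers of other cells in that table included 3 of 20 T cell and NK cell markers, 2 of 12 B cell markers, 1 of 12 dendritic cell markers (BATF3), 1 of 7 mast cell markers (KIT) and 2 of 12 endothelial markers, all lower, and 1 of 10 fibroblast markers (PDGFRA), higher. None was called. The T cell sum ran from 29.1 to 163 normalized counts in controls and from 15.4 to 60.5 in transported goats, and the endothelial sum from 1575 to 4010 and from 1052 to 2645. No neutrophil, red cell, adipocyte, satellite cell or muscle fibre marker was listed there. Their part in the differences of JAML, CIITA, CCL2, PTGES and ACP5 was not tested.

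**Figure D4:**
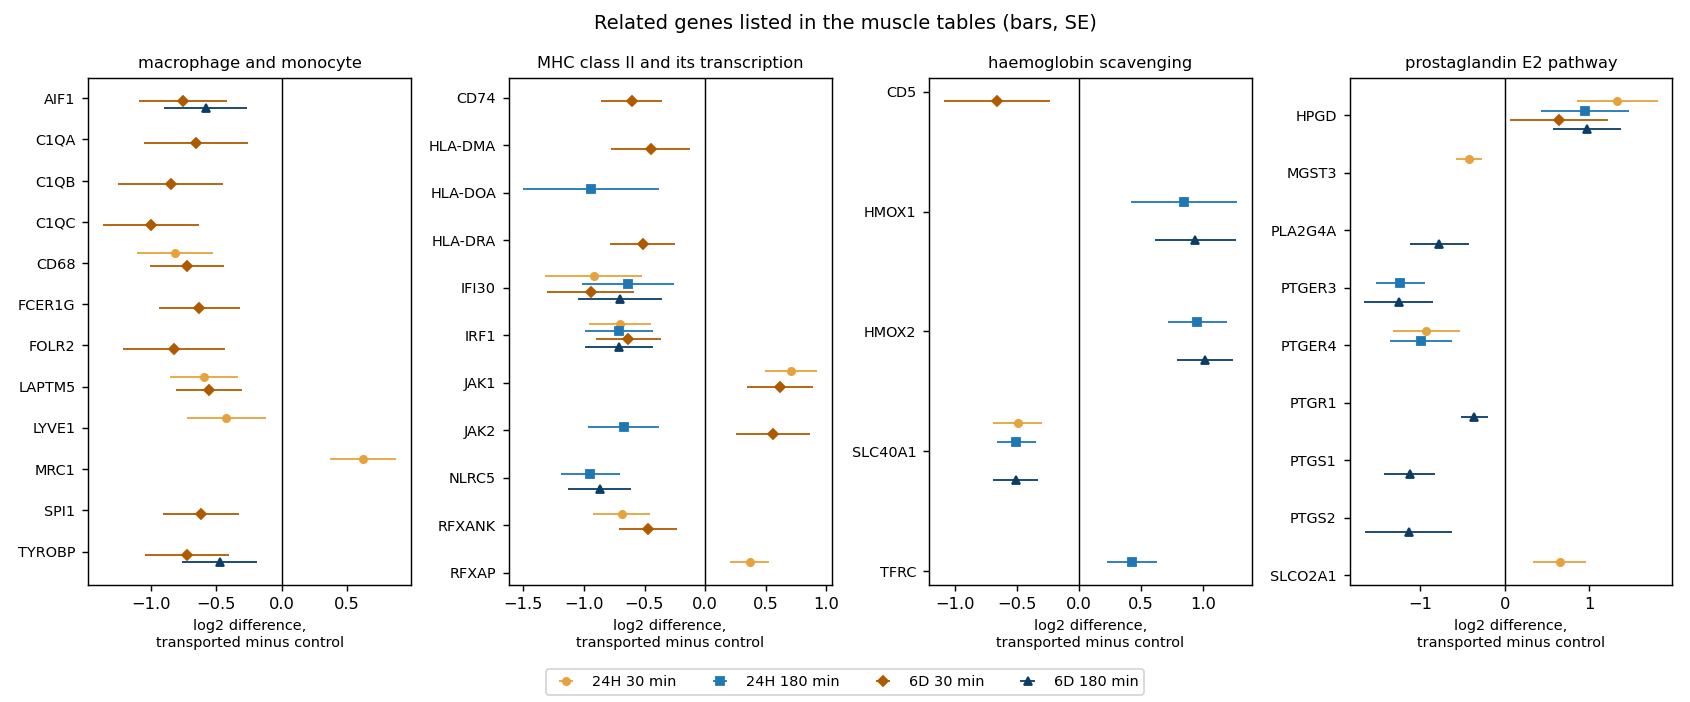
Log2 differences (transported minus control, points, with bars of 1 standard error from limma) of listed genes from 4 lists in the 4 muscle tables. All 10 macrophage markers of the 6D 30 min table lie left of 0, HMOX1 and HMOX2 lie right of 0 in both 180 min tables, and HPGD lies right of 0 in all 4 tables.

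The other muscle tables showed the same cell types as follows. Endothelial markers were lower wherever listed, 9 of 12 after 30 min in the 24H set with 7 called (among them ROBO4 at -0.93 ± 0.23, EGFL7 at -0.91 ± 0.21 and TIE1 at -0.76 ± 0.23), 8 after 180 min with none called, and 2 in the 6D 180 min table with none called. Over all listed genes of the 24H set after 30 min 18.1% were called lower. The endothelial sum in the 24H 30 min table, where ACP5 was called, ran from 5045 to 11809 normalized counts in controls and from 2840 to 7471 in transported goats, and its part in the ACP5 difference was not tested. Of 12 muscle fibre markers, 7 were listed in that table, with MB, TNNI2 and TNNC1 called lower and NEB called higher. The 24H 180 min table listed 3, with MYH7 called lower. Of all genes listed in the 24H set, 18.9% were called higher after 30 min and 6.78% lower after 180 min. The defining fibre genes were abundant, as the tissue label says, with a summed level of 1317760 to 2938190 normalized counts in the libraries of the 24H 30 min table. Of 17 neutrophil markers, PGLYRP1 and S100A12 were higher and ALPL lower in the 24H 180 min table, where CD163 was called, with sums of 63.3 to 224 in controls and 47.2 to 193 in transported goats. ALPL was lower in the 24H 30 min table and ELANE lower in the 6D 180 min table, none of these called. Of the mast cell markers, KIT was called lower in the 6D 180 min table, at -1.45 ± 0.59. Of all genes listed there 3.52% were called lower. KIT was lower and not called in the 24H 180 min table, as was HDC in the 24H 30 min table. In the 6D 180 min table CD8A and CD247 of T cells, BANK1 and FCRLA of B cells and ADIPOQ of adipocytes were lower and not called. In the 24H set LIPE and a perilipin or CIDEC of adipocytes, PAX7 of satellite cells (30 min) and SLC4A1 of red cells (180 min) were listed and not called, while T cell, B cell, dendritic cell and fibroblast markers were not listed. In blood after 30 min 4 B cell markers (lower), CDH15 (lower) and PLIN1 (higher) were listed, and after 180 min MS4A1, 3 endothelial markers (higher), 3 fibroblast markers (lower) and LIPE (higher), none of them called.

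The members were then followed from goat to goat within groups, which the choice of genes did not use. Correlations were taken on log2(normalized count + 1) after the group mean was removed, with p from 100000 permutations within groups and adjustment over 21 relations. In blood, goats that ranked higher in CD163 ranked lower in ACP5, with r = -0.77 and Spearman rho = -0.81 over 14 goats (permutation p = 0.00252 and 0.00188, adjusted 0.0529 and 0.0367). The relation was negative among the controls, at r = -0.66, and among the transported goats, at r = -0.89. Without goats 15 and 8, the farthest in CD163, r was -0.58. Both genes were divided by the same size factor, and with the library total in its place r was -0.68. In muscle of the 24H set after 30 min the same genes gave r = 0.26 over 18 goats (rho = 0.10, adjusted permutation p = 0.493), which turned to -0.16 without the 2 farthest goats.

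CIITA and CCL2 in the 6D 30 min table gave r = 0.63 and rho = 0.61 over 18 goats (permutation p = 0.00719 and 0.00973, adjusted 0.0755 and 0.0511), r = 0.42 in controls and 0.79 in transported goats, and r = 0.63 without the 2 farthest goats, and did not pass the adjusted threshold. Without goat 9 r was 0.67 (adjusted permutation p = 0.0325). ACP5 and CCL2 in that table gave r = 0.56 and rho = 0.67 (permutation p = 0.031 and 0.0035, adjusted 0.187 and 0.0367), and r = 0.59 without the 2 farthest goats. CCL2 and PTGES, both lower in transported goats, gave r = 0.08 (rho = 0.11, adjusted permutation p = 0.777) after 30 min and r = 0.08 (rho = 0.13, adjusted permutation p = 0.777) after 180 min, where the controls are shared. JAML with ACP5, CIITA, CCL2 and PTGES gave r between 0.14 and 0.34, none past the adjusted threshold. Between the muscle sets, goats with the same number gave r = 0.50 and rho = 0.63 for ACP5 (permutation p = 0.0357 and 0.00678, adjusted 0.187 and 0.0475; r = 0.43 without the 2 farthest goats) and r = 0.29 and rho = 0.27 for CD163 (adjusted permutation p = 0.466 and 0.50), the latter r at 0.087 without goat 9. CD163 in blood and in 6D muscle of the same number gave r = 0.48 and rho = 0.67 over 14 goats (adjusted permutation p = 0.258 and 0.0801), and in blood and 24H muscle r = 0.48 and rho = 0.60 (adjusted permutation p = 0.258 and 0.107), the latter at 0.14 without the 2 farthest goats. ACP5 in blood and muscle gave r = -0.47 (24H) and -0.16 (6D) over 11 goats, neither past the threshold, and without goat 9 they were -0.84 and -0.37. CD163 and CCL2 in the 6D 180 min table gave r = 0.30, and 0.036 without goat 9. Of the 21 relations, rho passed the adjusted threshold in the 3 named with an adjusted value under 0.05, and r in none.

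**Figure D5:**
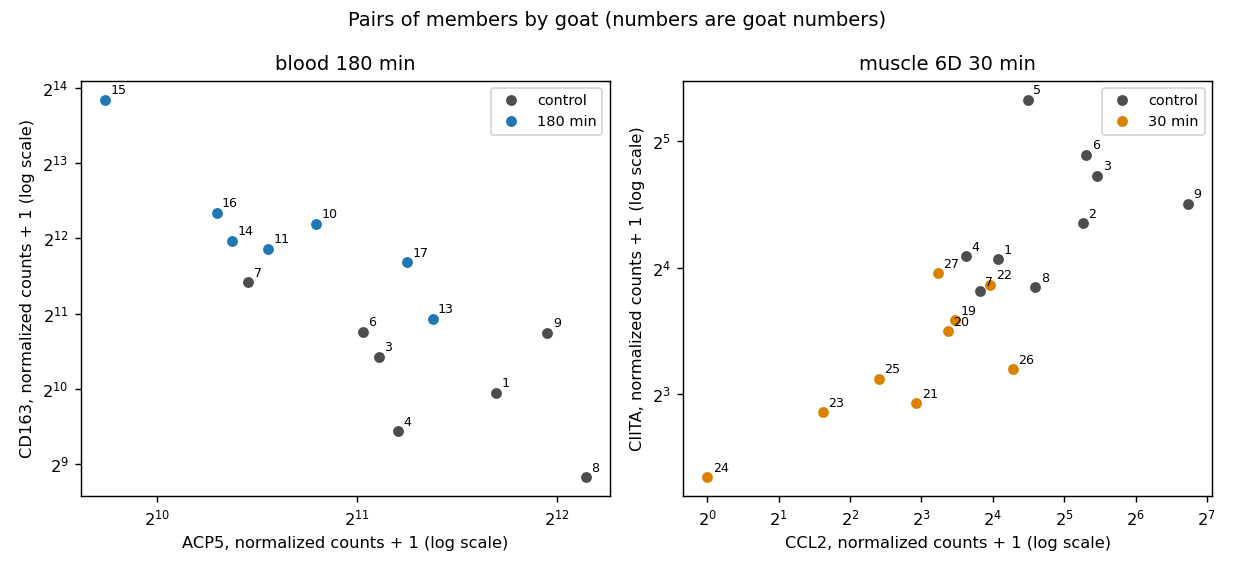
Left, CD163 against ACP5 in blood of controls and goats after 180 min; right, CIITA against CCL2 in 6D muscle of controls and goats after 30 min, both axes in normalized counts + 1 on log scales, with goat numbers. The left points run from upper left (goat 15) to lower right (goat 8), with r = -0.77 after removal of group means, and the right points from lower left (goat 24) to upper right, with r = 0.63.

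The genes most like each member were those with the highest Pearson correlation over the 18 libraries of a muscle table after removal of group means, among named genes averaging 50 or more normalized counts. They are a description of selected genes and carry no test. JAML was closest to AIF1 (r = 0.87) and CD74 (r = 0.84), a macrophage marker and the MHC class II invariant chain. CD163 in the 6D 180 min table was closest to CYBA (r = 0.82), a subunit of the phagocyte NADPH oxidase, and TIMP1 (r = 0.76), an inhibitor of matrix metalloproteinases. In the 24H set it was closest to CCND3 (0.84) and CHPF (0.76) after 180 min and to SCARA3 (0.84) and MRGPRF (0.76) after 30 min, so no gene recurred among its nearest across tables. ACP5 was closest to MIF (0.89), a cytokine of many cell types, and the mitochondrial protein ROMO1 (0.88) in the 24H 30 min table, and to BIN3 (0.81) and ST3GAL4 (0.80) in the 6D 30 min table. CIITA was closest to CD276 (0.68) and SLC4A3 (0.65). CCL2 was closest to IL33 (0.72), an alarmin cytokine, and STX11 (0.71) after 30 min and to TMEM47 (0.79) and LAMA4 (0.77), a laminin chain of vessel basement membranes, after 180 min. PTGES was closest to CNRIP1 (0.70) and SPSB3 (0.68) after 30 min and to KMT5C (0.78) and CNTFR (0.64) after 180 min. The median r of the ranked genes with a member ran from -0.29 (ACP5, 24H set) to 0.05 (PTGES, 6D 180 min).

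For the members listed at both durations, longer and shorter transport were compared directly on counts per 10 M of the library total. To be listed, these members had to differ from the same controls at both durations, which limits how far the durations can differ. A member listed at 1 duration of a set, such as JAML or CIITA, could not enter. CD163 in the 24H set was higher after 180 min than after 30 min by 0.58 on the log2 scale (95% interval -0.16 to 1.32; exact permutation p = 0.114, adjusted over 4 comparisons 0.457), with 7 of 9 goats above the 30 min median. ACP5 in blood was lower by 0.12 (difference -0.12, interval -0.90 to 0.68; exact permutation, adjusted p = 0.752). With the CCL2 and PTGES values given above, none of the 4 comparisons of 180 min with 30 min passed the threshold. Because of that selection, no conclusion on the duration of transport is drawn from them.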

How the data were processed

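Blood RNA (MagMAX kit) and muscle RNA (RNeasy Fibrous Tissue kit) went into libraries made with a NEBNext Ultra kit, per the labels' protocols. Aligner, counter, strand setting, annotation and genome build were not given in the sources used here. Reads shared by related or overlapping genes may be split in unknown ways. The authors deposited raw counts per gene, per the file headers. The normalized counts are a signal that the authors deposited, counts over 1 size factor per library and table (checked: 100% of values match within a relative tolerance of 1e-06). The deposited FPKM values match counts over the listed length and a library total in the same way, and these totals (9.45 to 39.5 M, M for 1e+06) set the counting error. The log2 fold changes, p-values and adjusted p-values in the deposited tables are the authors' own. Replicates are goats by the numbers in the titles. Genes outside the tables were not analysed here. One listed gene of the adhesion list is not reported here.

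The members and the gene lists were chosen with earlier results of these data known. Each comparison was fitted with limma 3.58.1 (trend) on log2(normalized count + 1) over all genes of its table, with Benjamini-Hochberg adjustment at 0.05. These adjusted p-values describe selected genes. Alternatives were library total and TMM scaling, pseudocounts of 0.5 and 5, a mean of at least 10, edgeR 4.0.16 (quasi-likelihood), DESeq2 1.42.0, adjustment over the authors' number of genes, and leaving out each library. The tests of 180 min against 30 min, of 6D against 24H, of transport differences between sets and of correlations were added after the data were seen; they used exact permutation or 100000 permutations (numpy 2.4.6, scipy 1.17.1), and were tested on simulated data. Goat numbers recur between sets and not within a table. Deviations from group means of same-numbered 24H and 6D libraries correlated at 0.25 to 0.74 in controls and 0.37 to 0.65 after 180 min, and at -0.06 to 0.82 after 30 min, where 6 of 9 exceeded 0.1. Named genes are all members, the called genes of each list with the smallest adjusted p (other list genes are named to account for counts), and the 2 genes most like a member per muscle table. R 4.3.3, Python 3.11.15 and pandas 2.3.3 were used.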

Additional observations from a re-analysis of the deposited data

Results flagged for a closer look

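In 8 of 30 groups of normalized counts 1 library stood apart from the rest by Dixon's criterion. Its rate of about 1 group in 20 by chance holds for normally distributed values. The counts were not log transformed for it, and every flag was a highest library, so no excess over chance is shown. The CCL2 and PTGES controls of the 6D set appear once for each of their tables, with the same libraries.

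CD163 stood apart in blood after 180 min through goat 15, at 14681 normalized counts with the next goat at 5180, and in 6D muscle after 180 min through goat 16, at 190 normalized counts with the next at 105. ACP5 stood apart in 6D muscle after 30 min through goat 19, at 705 normalized counts with the next at 364. CCL2 stood apart in the 6D controls through goat 9, at 105 normalized counts in the 30 min table and 99.98 in the 180 min table, and goat 9 is the library whose labels disagree. CCL2 in blood after 180 min stood apart through goat 13, at 2.76 normalized counts. PTGES stood apart in the 6D controls through goat 5, at 105 normalized counts in the 30 min table and 100.1 in the 180 min table.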

How the results depend on the processing

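Of 370 values of the 15 log2 differences under other settings, 336 kept their direction and side of the threshold, 15 kept the direction and lost the threshold, 19 kept it and passed, and none changed sign. The number of members past the threshold moved more. With DESeq2 it was 1 in place of 0 in blood after 30 min, 3 in place of 1 in blood after 180 min and 5 in place of 0 in the 6D 30 min table. These are all the members listed there. Genes selected on an unadjusted p under 0.05 were close to certain to pass an adjustment over the listed genes alone. In blood after 180 min TMM and edgeR each gave 2. TMM moved the ACP5 difference in blood from -0.62 to -0.30 after 30 min and from -0.74 to -1.16 after 180 min. With adjustment over the authors' number of genes it was 0 in blood, the 24H and the 6D set after 180 min (in place of 1, 1 and 3) and 1 in place of 2 in the 24H 30 min table. Apart from the DESeq2 counts and the last setting, which adjusts over more genes, the cause was not tested.

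With 1 library left out the number ran from 1 to 2 in blood after 180 min (2 without transported goat 13, control 7 or control 9), from 1 to 2 in the 24H 30 min table, from 0 to 5 in the 6D 30 min table (5 without control 4, 1 without transported goat 19) and from 2 to 3 in the 6D 180 min table. Leaving out 1 library turned the sign of differences that had not passed the threshold. The difference of 180 min from 30 min ran from -0.14 to 0.34 for CCL2 (negative without goat 24), from -0.0074 to 0.29 for PTGES (goat 19) and from -0.26 to 0.045 for ACP5 in blood (goat 15). The 6D minus 24H level of CD163 after 180 min ran from -0.18 to 0.18 (positive without goat 11, 15 or 18), and the difference between sets in the ACP5 transport effect from -0.072 to 0.23 (negative without goat 19). Without the 2 farthest libraries, r turned from -0.47 to 0.25 for ACP5 in blood and 24H muscle, from 0.26 to -0.16 for CD163 and ACP5, from 0.23 to -0.12 for CIITA and PTGES and from 0.30 to -0.19 for CD163 and CCL2. Without goat 9, r was -0.89 for CD163 and ACP5 in blood (adjusted permutation p = 0.00525) and 0.67 for CIITA and CCL2 (adjusted permutation p = 0.0325). It also moved from 0.29 to 0.087 for CD163 in both muscle sets, from 0.30 to 0.036 for CD163 and CCL2, from 0.26 to 0.13 for CD163 and ACP5 in 24H muscle, from 0.17 to 0.061 for JAML and CCL2, and from -0.47 to -0.84 (24H) and -0.16 to -0.37 (6D) for ACP5 in blood and muscle, none past the adjusted threshold.

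Groups within a table share no goat number. With the goat number as a replicate block, the 6D minus 24H difference of ACP5 was 0.93 in controls and 1.09 after 30 min (exact sign-flip test, adjusted p = 0.0078 for both), and that of CD163 was 0.51 and -0.04 (adjusted p = 0.234 and 0.918, exact). Without the block, the difference between sets in the transport effect was -0.55 for CD163 and 0.16 for ACP5 (adjusted permutation p = 0.744 for both). The block changed no call. The low counts of CCL2, PTGES, JAML and CIITA limit their precision, and CCL2 in blood had no value under the filter on a mean of 10.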
